A study of Homo sapiens with 18 samples.

Results

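The 10 genes described here encode mucins and proteins that epithelia of the mouth, throat and airways secrete or carry as a first line of defence. They were chosen by name, with earlier results of these data known, as MUC1, MUC4, MUC16, MUC20, BPIFA2, LCN2, PIGR, SLPI, PI3 and WFDC2. All 10 were found among the 19901 genes of the count table and passed the filter on low counts. PIGR and BPIFA2 passed it through Detroit 562 alone, and BPIFA2 through the untreated libraries of that line. The material was head and neck squamous cell carcinoma lines of different origin. SCC-9 was taken from the tongue, FaDu from the hypopharynx, and Detroit 562 from a secondary deposit of a carcinoma of the pharynx. In each line 3 libraries came from untreated cells and 3 from cells given hepatocyte growth factor (HGF, 50 ng/mL) for 16 h. Detroit 562 and FaDu were grown in MEM-alpha and SCC-9 in DMEM/F12 with hydrocortisone, so the line and its medium cannot be told apart. The lines were not edited and no other agent was added.

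Mucins are large glycoproteins whose sugar chains hold water and form the gel or the cell coat of a mucosa. MUC1, MUC4 and MUC16 are membrane-bound mucins of the apical cell surface, and MUC20 is a smaller mucin that has been described to bind Met, the receptor of HGF. PIGR, the polymeric immunoglobulin receptor, carries IgA and IgM across the epithelial cell into saliva and mucus. SLPI and PI3 (elafin) inhibit neutrophil elastase and related serine proteases through a WAP domain, a fold that WFDC2 (HE4) shares. LCN2 binds bacterial siderophores and so withholds iron, and BPIFA2 is a salivary protein of the BPI fold family.

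After HGF, 7 of the 10 genes fell in Detroit 562 and none rose, where 11.7% of all genes tested fell and 6.16% rose. Because the members were chosen with earlier results of these data known, these shares do not test an excess among them. PIGR fell by 60.2%, MUC20 fell by 59.1%, MUC1 fell by 59.0%, MUC16 fell by 56.4%, MUC4 fell by 52.4% and SLPI fell by 32.8%. BPIFA2, the other of the 7, went from a sum of 38 counts to 3. It passed the filter through the untreated Detroit 562 libraries alone, so the filter itself favoured a fall. No member passed the test in FaDu or in SCC-9. Another model compared each HGF library with the control library of the same replicate number. In it 9 members, BPIFA2 included, fell in Detroit 562 and 4 fell in FaDu, while SCC-9 had 0. Of all genes, 21.5%, 5.6% and 1.97% were called in that model in either direction, and 14.4% fell in Detroit 562 and 3.6% in FaDu.

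Values of single libraries are CPM, counts scaled per library total after TMM normalization. Fold changes are from edgeR's quasi-likelihood test, written as log2 ± 1 standard error, and adjusted p values are Benjamini-Hochberg values over the 15475 genes tested. Calls needed an adjusted p under 0.1 together with a log2 fold change of 0.4 or more in either direction, and for a difference in response between lines the adjusted p sufficed. The total count per library ranged from 35304770 to 44003970. The replicate numbers pair the libraries, because the paired libraries deviated together across genes, so a second model blocked on replicate in each line, and its value is given where a call changes. The study's methods describe the replicates as repeats of the experiment, each on cells of the same line, and the p values measure the spread between these libraries. MET, the gene of the HGF receptor, was at 793 ± 37.7 CPM (SD, n = 3) in untreated Detroit 562, 148 ± 11.5 CPM in FaDu and 289 ± 17.7 CPM in SCC-9.

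The genes lie in part side by side. MUC4 and MUC20 are neighbours on chromosome 3, on opposite strands with 5.64 kb between them, and PI3, SLPI and WFDC2 lie in the WAP gene cluster of chromosome 20 within 307 kb. MUC1 and PIGR are on chromosome 1, LCN2 on 9, MUC16 on 19 and BPIFA2 on 20. Reads were counted over the whole extent of a gene on its strand, and by GENCODE 44 the long non-coding RNA MUC20-OT1 covers 94.3% of the extent of MUC20 on the same strand, so reads from both cannot be told apart. MUC1 shares its strand and part of its extent with RP11-201K10.3, whose count was 31.0% to 1033% of that of MUC1. What share the overlap has in the MUC1 counts, and so in its line differences and HGF responses, was not tested. The counted extent of MUC16 stopped 29048 bases short of the 5′ end that GENCODE 44 gives it.

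The sequences just before the start of transcription are shown for PIGR and MUC1, which fell with HGF, and for LCN2, which changed least in Detroit 562. RefSeq (GRCh38.p14) gave such a sequence for 7 of the 10 members. The 180 bases before the start are written 5′ to 3′ in the direction of the gene, from chr1:206946467-206946646 (minus strand) for PIGR, chr1:155192916-155193095 (minus strand) for MUC1 and chr9:128149273-128149452 (plus strand) for LCN2. Capitals mark matches on either strand to GGANNNTCC (NF-kB-type), TGANTCA (AP-1-type), TTCNNNGAA (STAT-type), TTGCNNAA (C/EBP-type) or CAGGAAG (a motif of epithelial ETS factors such as ELF3).
PIGR: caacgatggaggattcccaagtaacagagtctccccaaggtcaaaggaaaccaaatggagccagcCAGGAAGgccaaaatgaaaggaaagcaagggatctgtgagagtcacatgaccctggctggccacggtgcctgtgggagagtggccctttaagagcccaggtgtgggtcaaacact
MUC1: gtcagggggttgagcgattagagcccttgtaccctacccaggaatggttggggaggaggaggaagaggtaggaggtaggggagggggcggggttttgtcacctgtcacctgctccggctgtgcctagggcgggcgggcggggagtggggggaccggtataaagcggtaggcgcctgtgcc
LCN2: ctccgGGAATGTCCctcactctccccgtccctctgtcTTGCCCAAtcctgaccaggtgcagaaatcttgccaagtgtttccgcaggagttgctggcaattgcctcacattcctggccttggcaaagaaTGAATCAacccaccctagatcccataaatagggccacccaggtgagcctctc
LCN2 held an NF-kB-type match at bases -175 to -167, a C/EBP-type match at -143 to -136 and an AP-1-type match at -52 to -46, counted back from the start. PIGR held 1 match, to the ETS-type motif at -115 to -109, and MUC1 held none. Of the members not shown, MUC4 held a STAT-type match at -11 to -3 and WFDC2 none. For MUC16, which has more than 1 start, an ETS-type match lay at -131 to -125 of one, and an AP-1-type match at -136 to -130 and an ETS-type match at -112 to -106 of another. BPIFA2 held NF-kB-type matches at -100 to -92 and -89 to -81 of one of its starts. Matches thus occurred both in members called as lower in Detroit 562 and in LCN2, which was lower there in 3 of 3 pairs but not called. Among all 35116 promoter windows of this length 5.62% held the NF-kB-type, 4.92% the AP-1-type, 4.47% the STAT-type, 6.12% the C/EBP-type and 7.95% the ETS-type letters. A match is a description of the letters and not a binding site.

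Before treatment, the lines differed widely in these genes. Per length, as CPM divided by kb of exon, SLPI led in Detroit 562 at 539 ± 79.4 (SD, n = 3), ahead of LCN2 at 135 ± 34.1 and MUC1 at 72.9 ± 13.2. PI3 at 29.3 ± 12.3, WFDC2 at 27.5 ± 5.04, PIGR at 23.3 ± 9.12 and MUC20 at 18.9 ± 2.30 followed. Among these 4 the ranges of WFDC2 and MUC20 did not overlap and those of every other pair of genes did. MUC4 at 1.09 to 1.29, MUC16 at 0.505 ± 0.0247 and BPIFA2 at 0.281 ± 0.0530 closed the order with no overlap. In SCC-9, SLPI also led, at 287 ± 36.8, followed by MUC1 at 40.2 ± 9.56, PI3 at 29.5 ± 8.71, LCN2 at 27.0 ± 1.23 and WFDC2 at 23.0 ± 2.59, where PI3 overlapped MUC1, LCN2 and WFDC2 and no other pair of these 4 did. In FaDu no member exceeded a mean of 19.0 on this scale, the level of LCN2, and SLPI, whose range overlapped with it, stood at 16.4 ± 3.33. Lengths are merged exons of GENCODE 44 inside the counted extent, and the large mucins hold tandem repeats, so the order of the mucins depends on how reads in repeats were counted. Reads were counted over whole extents with introns, so genes with long introns may stand too high. MUC20 may also hold reads of MUC20-OT1.

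**Figure D1:**
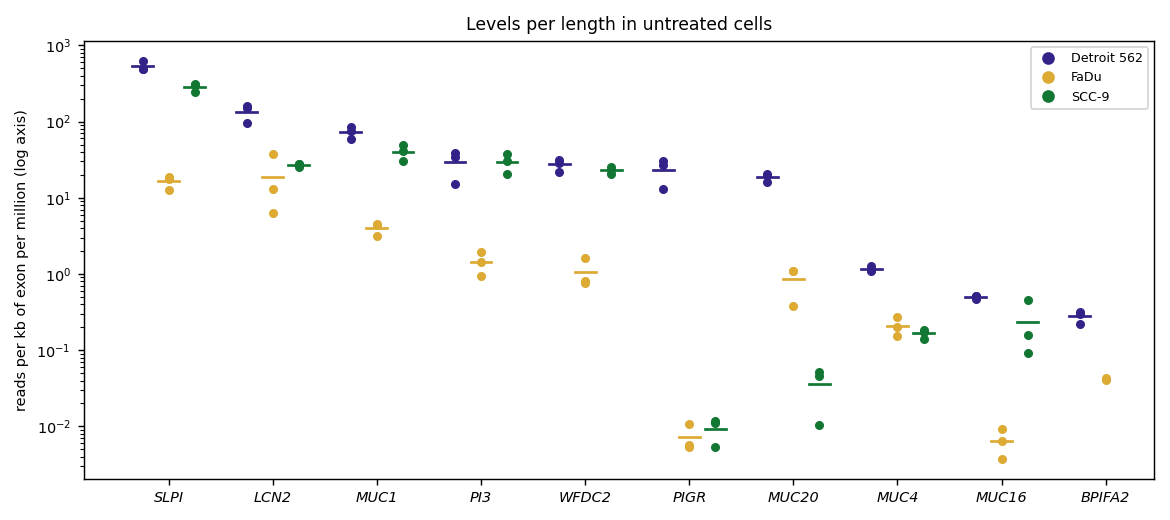
CPM per kb of exon (log axis) of the 10 genes in the 3 untreated libraries of each line, with a bar at the mean where all 3 libraries had counts. SLPI is highest in Detroit 562 and SCC-9, while PIGR lies near 23 in Detroit 562 and near 0.01 in the other lines. Libraries with a count of 0 (BPIFA2) are not drawn.

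All 10 members were higher in untreated Detroit 562 than in untreated FaDu. In that comparison 61% of all genes were called in either direction, and 4833 of 15475 as higher in Detroit 562. PIGR and BPIFA2, which passed the filter through Detroit 562 alone, had to differ in the comparisons with it. The fold ranged from 5.64 for MUC4 (edgeR adjusted p = 5.68e-07) to 77.8 for MUC16 (6.28 ± 0.60, adjusted p = 6.24e-08) among the genes with more than 4 counts in FaDu. SLPI was 32.7-fold higher and MUC1 18.2-fold. Against untreated SCC-9, 8 members were higher in Detroit 562, beside 65.4% of all genes called in either direction and 4865 of 15475 called as higher. MUC20 was 522-fold higher there, from 111 to 139 CPM against 0.0718 to 0.357 CPM, while SLPI (1.88-fold) and MUC1 (1.82-fold) differed little.

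PI3 and WFDC2 did not pass the test between Detroit 562 and SCC-9, with log2 differences of -0.01 ± 0.40 and 0.26 ± 0.25. In FaDu against SCC-9, 64.2% of all genes were called, 5181 of 15475 as lower in FaDu and 4753 as higher. Of the members, 5 were lower in FaDu (MUC1, MUC16, SLPI, PI3 and WFDC2) by 10.0-fold to 35.9-fold. The largest difference was that of MUC16 (log2 -5.16, and -4.26 without SCC-9 control replicate 3), and MUC20 was 23.5-fold higher in FaDu. BPIFA2 was also called there, on 4 counts in FaDu against 0 in SCC-9, which is too few for a fold, and the call was lost when replicate numbers formed a block (adjusted p = 0.113) or without FaDu control replicate 1 or 2 or any SCC-9 control (adjusted p from 0.152 to 0.190). LCN2 was called as lower in FaDu than in SCC-9 only without FaDu control replicate 1 (log2 -1.46, adjusted p = 0.0314), the control library in which it was highest, against -0.51 with all libraries.

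PIGR and BPIFA2 were near or at 0 outside Detroit 562. PIGR had 11905 counts in the 3 untreated Detroit 562 libraries together, 4 in those of FaDu and 5 in those of SCC-9. The ratio was 3185 against FaDu (95% exact binomial interval 1244 to 11691) and 2519 against SCC-9 (1079 to 7759), and these intervals cover counting error only. BPIFA2 had 38 counts in untreated Detroit 562, 4 in FaDu and 0 in SCC-9, so it was 10.2-fold higher than in FaDu (interval 3.66 to 39.2) and at least 13.4-fold higher than in SCC-9, taking 3 counts over the group as the floor (the exact binomial lower limit is 10.4).

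**Figure D2:**
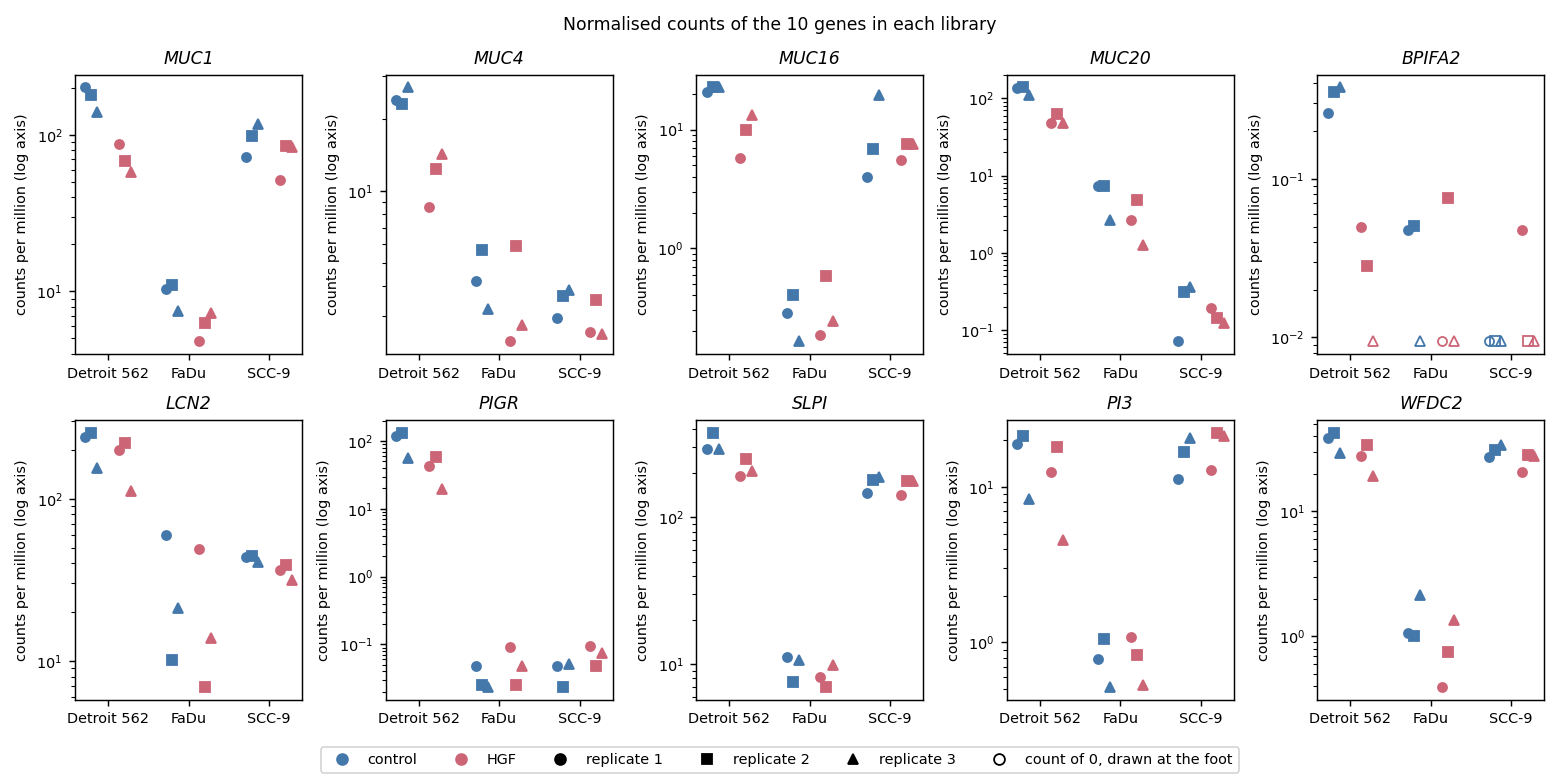
CPM (log axis) of each gene in the 18 libraries, by line, with controls in blue, HGF in red and the marker shape giving the replicate number. In Detroit 562 the HGF libraries of MUC1, MUC4, MUC16, MUC20, BPIFA2 and SLPI all lie below the controls, and open markers at the foot are counts of 0.

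The response to HGF in Detroit 562 is described first for the mucins. The 7 members called are to be read beside 17.9% of all genes called in this comparison. In 6 of the 10 every HGF library lay below every control, as in 20.1% of all genes. All 10 were lower in 3 of 3 pairs, as were 32.3% of all genes. Each of these counts includes BPIFA2, whose fall the filter favoured. The median log2 fold change of the members was -1.13, against -0.01 over all genes tested.

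MUC1, a membrane mucin that also carries signals through its cytoplasmic tail, stood at 203, 182 and 141 CPM in the control libraries of replicates 1 to 3 and at 88.4, 68.6 and 58.2 CPM in the HGF libraries. Every HGF library was below every control, and within each group replicate 1 was highest and replicate 3 lowest. The fall was -1.29 ± 0.23 (edgeR adjusted p = 0.00171).

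MUC20 was at 136, 139 and 111 CPM in the controls and 48.1, 61.9 and 48.1 CPM with HGF. The groups stood far apart, and the fall was -1.29 ± 0.31 (adjusted p = 0.00771). The overlapping non-coding RNA on its strand has a share in these counts that was not tested.

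MUC4, which can pair with the receptor ErbB2, was at 23.8, 23.0 and 27.0 CPM in the controls and 8.56, 12.4 and 14.2 CPM with HGF. The groups did not overlap, and pair 1 fell most (log2 ratio -1.48, against -0.89 and -0.92 in the others). The fitted change was -1.07 ± 0.27 (adjusted p = 0.00968).

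MUC16, the carrier of the CA125 antigen, was at 20.9, 22.7 and 22.8 CPM in the controls and 5.76, 10.0 and 13.3 CPM with HGF. The controls lay close together and the HGF libraries were spread over more than a doubling, all below the controls. The fall was -1.20 ± 0.42 (adjusted p = 0.0445), and this call rested on the full set of libraries. It was lost without control replicate 1 (-1.24, adjusted p = 0.102), control replicate 2 (-1.18, adjusted p = 0.107) or HGF replicate 1 (-0.93, adjusted p = 0.145).

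Among the secreted proteins and their transporter, PIGR fell as far as the mucins. It was at 117, 132 and 56.4 CPM in the controls and 42.6, 59.0 and 19.6 CPM with HGF. The groups overlapped, because replicate 3 was low in both, and within the pairs the log2 ratios were close at -1.46, -1.16 and -1.53. The fall was -1.33 ± 0.30 (adjusted p = 0.00565).

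SLPI, the most abundant member, was at 295, 376 and 293 CPM in the controls and 190, 250 and 207 CPM with HGF. The HGF libraries all lay below the controls. The fall was the smallest of the 7, -0.57 ± 0.16 (adjusted p = 0.0143), and the pairs gave -0.63, -0.59 and -0.50.

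BPIFA2 had 11, 13 and 14 counts in the control libraries and 2, 1 and 0 with HGF. It passed the filter through these controls alone, so a fall was favoured in advance and its call is no support for one. At these numbers the change is given as a ratio of summed counts, with the control 11.8-fold higher (95% exact binomial interval 3.75 to 59.8, counting error only), and the edgeR fit called it (adjusted p = 0.00891). The fitted log2 value of -3.43 ± 0.82 depends on the prior count and became -4.22 without HGF replicate 1. DESeq2 gave the gene no adjusted p, and with the 6 Detroit 562 libraries alone it did not pass the filter, so neither tests this call.

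LCN2, PI3 and WFDC2 did not pass the test in Detroit 562. LCN2 was at 240, 254 and 154 CPM in the controls and 199, 220 and 111 CPM with HGF, a change of -0.29 ± 0.56 (adjusted p = 0.741). PI3 was at 18.8, 21.2 and 8.40 CPM against 12.5, 18.03 and 4.59 CPM, and WFDC2 at 38.6, 42.3 and 29.2 CPM against 27.9, 33.8 and 19.2 CPM. In all 3 genes, as in PIGR, replicate 3 was the lowest library of both groups, and the groups overlapped.

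With the replicate block, PI3 (-0.52 ± 0.11, adjusted p = 0.00141) and WFDC2 (-0.46 ± 0.08, adjusted p = 0.000207) were called as lower. This made 9 of 10 members beside 21.5% of all genes called and 14.4% called as lower in that model. The 9 include BPIFA2, whose fall the filter favoured. LCN2 then had an adjusted p of 0.00074 at -0.32 ± 0.06, which is under the minimum fold change. Without both libraries of replicate 3 the blocked model no longer called WFDC2 and kept the other 8.

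**Figure D3:**
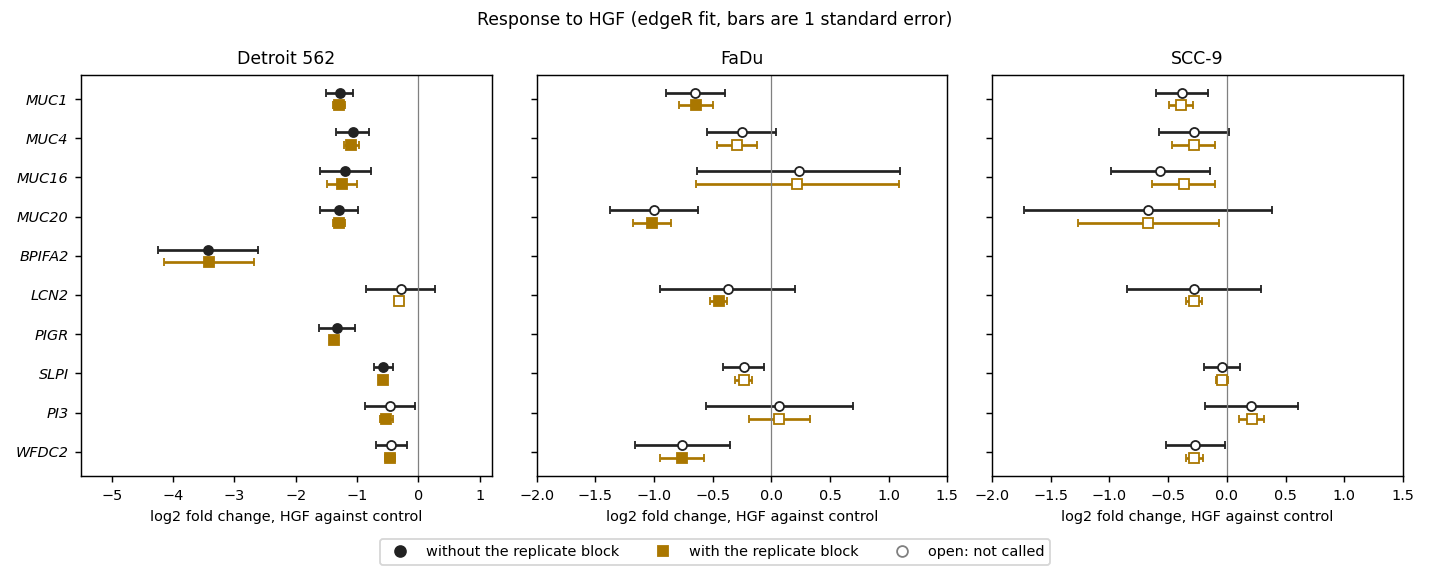
Log2 fold change (HGF against control, bars 1 standard error) of each gene in each line, without (black circles) and with (ochre squares) the replicate block. Filled markers are called, and the errors of LCN2, PIGR and PI3 in Detroit 562 shrink most under the block. PIGR and BPIFA2 are not drawn in FaDu and SCC-9, where they had at most 4 counts in a library, and the Detroit 562 panel has a wider axis.

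In FaDu no member was called, beside 0.0258% of all genes. An unadjusted p below 0.05 was found for 2 members and for 1247 of the 15475 genes tested. DESeq2 also called 0 members. Its share over all genes is not given here, so this count describes the members alone. MUC1 was at 10.4, 10.9 and 7.46 CPM in the controls and 4.80, 6.31 and 7.28 CPM with HGF. The groups did not overlap, by a narrow margin between the 2 libraries of replicate 3, and the change of -0.65 ± 0.25 had an adjusted p of 0.572. MUC20 was at 7.43, 7.38 and 2.63 CPM against 2.64, 4.83 and 1.28 CPM, a change of -0.9975 ± 0.38 (adjusted p = 0.559). Replicate 3 was low in both groups.

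LCN2 varied more between FaDu replicates than with treatment. It was at 59.6, 10.2 and 21.0 CPM in the controls and 49.2, 6.89 and 13.9 CPM with HGF. Replicate 1 was several times higher than replicate 2 in both groups (5.86-fold and 7.14-fold), and the HGF library was the lower one in all 3 pairs. The unpaired change of -0.37 ± 0.58 turned to 0.58 without FaDu control replicate 1.

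With the block, 4 of the 10 members were called in FaDu, all lower, beside 5.6% of all genes called and 3.6% called as lower. They were MUC1 (-0.65 ± 0.14, adjusted p = 0.00996), MUC20 (-1.02 ± 0.16, adjusted p = 0.00119), LCN2 (-0.45 ± 0.07, adjusted p = 0.00148) and WFDC2 (-0.76 ± 0.19, adjusted p = 0.0192). WFDC2 had only 40 to 91 counts in the controls. Without the libraries of replicate 1 the blocked model called 2 of these (MUC20 and LCN2), and without those of replicate 3 it called 3, no longer LCN2.

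In SCC-9 no member was called without the block, beside 0% of all genes, nor with it, beside 1.97%. None had an unadjusted p below 0.05 without the block, beside 641 of the 15475 genes tested. DESeq2 called 0 members, again without a share over all genes to set beside it. SLPI, the most abundant member here too, was at 146, 179 and 187 CPM in the controls and 143, 176 and 178 CPM with HGF. The paired libraries lay within a few percent of each other, and the change was -0.04 ± 0.16 (adjusted p = 1). MUC1 was at 72.2, 99.2 and 118 CPM against 51.9, 85.5 and 84.6 CPM, and its blocked change of -0.39 ± 0.10 (adjusted p = 0.0499) was just under the minimum fold change. Without the libraries of replicate 2 the blocked model called it. PI3 was at 11.2, 16.8 and 20.8 CPM against 12.8, 22.3 and 21.3 CPM, higher in 3 of 3 pairs and not called (0.21 ± 0.40). MUC16 was at 4.02, 6.92 and 19.8 CPM in the controls and 5.57, 7.53 and 7.59 CPM with HGF. Control replicate 3 was far above the rest, and the change of -0.57 ± 0.42 became 0.33 without it.

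**Figure D4:**
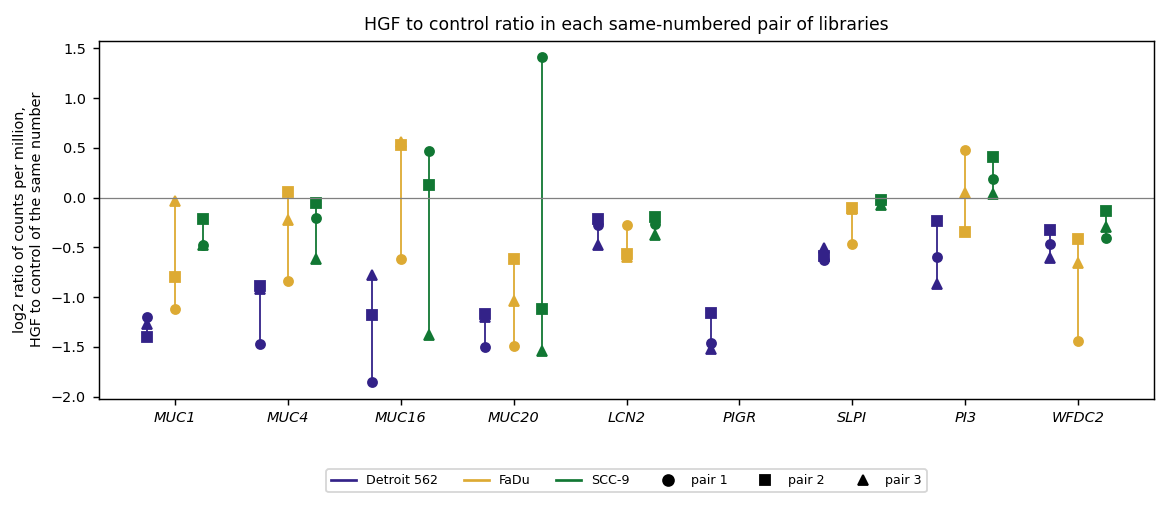
Log2 ratio of HGF to control CPM in each same-numbered pair of libraries (marker shape), by gene and line, without BPIFA2 and, outside Detroit 562, without PIGR. All Detroit 562 ratios are below 0, and PI3 is below 0 in 3 of 3 pairs of Detroit 562 and above 0 in 3 of 3 pairs of SCC-9.

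Whether the response itself differed between lines was tested as an interaction. Without the block no member passed, beside 0.239% of all genes for Detroit 562 against FaDu, 0.924% for Detroit 562 against SCC-9 and 0% for FaDu against SCC-9. The counts of members with an unadjusted p below 0.05 were 0, 3 and 0, beside 1788, 2378 and 337 of the 15475 genes tested. MUC1 passed between Detroit 562 and SCC-9 without Detroit 562 control replicate 3 (-1.04, adjusted p = 0.0844). With DESeq2, with or without its prior, MUC1 passed between Detroit 562 and SCC-9 and no member in the other comparisons. The shares of all genes that passed with DESeq2 are not given here.

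With the block, 4 of 10 members differed between Detroit 562 and FaDu, beside 19.1% of all genes, 6 of 10 between Detroit 562 and SCC-9, beside 26.9%, and 0 between FaDu and SCC-9, beside 1.32%. The first 2 comparisons share the Detroit 562 libraries. MUC1 fell further in Detroit 562 than in FaDu by -0.65 ± 0.18 (edgeR adjusted p = 0.0284) and than in SCC-9 by -0.90 ± 0.14 (adjusted p = 0.000758). MUC4 did so by -0.80 ± 0.22 (adjusted p = 0.0275) and -0.81 ± 0.22 (adjusted p = 0.0216), and SLPI by -0.34 ± 0.09 (adjusted p = 0.0230) and -0.53 ± 0.07 (adjusted p = 0.000243). PI3 differed between Detroit 562 and SCC-9, by -0.73 ± 0.15 (adjusted p = 0.00449). The counts of 4 and 6 also hold PIGR, and that of 6 BPIFA2. The other line had at most 4 counts of these in a library, so nothing is read from those calls.

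These calls depended on single pairs. Between Detroit 562 and FaDu, the blocked model without the pair of FaDu replicate 3 called MUC4 alone, and without that of replicate 2 it called MUC1 and SLPI. Between FaDu and SCC-9 it called MUC1 without the pair of FaDu replicate 3. Between Detroit 562 and SCC-9 it called 3 members (MUC1, SLPI and PI3) without the pair of SCC-9 replicate 2. For LCN2 the blocked difference was 0.13 ± 0.10 against FaDu and -0.04 ± 0.09 against SCC-9, with small falls in all 3 lines (-0.32, -0.45 and -0.28).

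Of 17 further mucin genes counted, 7 were tested, and in Detroit 562 2 of them fell and none rose, with a median log2 of -0.45. MUC15, a membrane mucin, fell from a mean of 4.24 to 1.15 CPM (-1.88 ± 0.23, adjusted p = 0.000211) and MUC3A from 1.02 to 0.272 CPM (-1.92 ± 0.37, adjusted p = 0.00267). CD164, a small sialomucin, was the most abundant of them, at 287 CPM in untreated Detroit 562, 161 CPM in FaDu and 99.997 CPM in SCC-9, and was not called in Detroit 562 (-0.10 ± 0.13, adjusted p = 0.593). The gel-forming mucin MUC5B was at 3.26 CPM in untreated Detroit 562 and did not pass the test. With the block 4 of the 7 fell, MUC5B among them (adjusted p = 0.0361), beside 14.4% of all genes called as lower in that model. The counts without the block in this and the following lists stand beside 11.7% of all genes called as lower and 6.16% called as higher. The lists were chosen with earlier results of these data known, so these shares do not test an excess.

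Among 16 tested genes for other secreted defence proteins, 7 fell and 2 rose in Detroit 562, with a median of -0.68. AGR2, a disulfide isomerase needed for mucin folding, fell from 237 to 92.4 CPM (-1.36 ± 0.29, adjusted p = 0.00423). The secretoglobins SCGB1A1 (-1.57 ± 0.44, adjusted p = 0.0161) and SCGB3A1 (-0.94 ± 0.20), the complement genes C3 (-0.66 ± 0.18) and CFB (-0.88 ± 0.22), the actin-severing protein gene GSN (-0.69 ± 0.14) and ZG16B (-0.85 ± 0.35, adjusted p = 0.0860) also fell. The antimicrobial ribonuclease gene RNASE7 (1.46 ± 0.32) and the cystatin gene CST6 (0.77 ± 0.16) rose. The call of SCGB1A1 was lost without control replicate 1 (-1.17, adjusted p = 0.113), and that of ZG16B in 5 of the 6 fits that left out a Detroit 562 library, all but that without control replicate 3, with values from -0.938 to -0.72. Of 6 tested WAP and BPI fold genes, BPIFB1 (-1.05 ± 0.24, adjusted p = 0.00612) and ANOS1 (-1.09 ± 0.20, adjusted p = 0.00212) fell.

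Of 29 tested enzymes that build mucin-type O-glycans, 12 fell and 1 rose in Detroit 562, with a median of -0.38. ST6GALNAC1, which makes the sialyl-Tn antigen, fell most (-2.11 ± 0.41, adjusted p = 0.00294), from 12.9 to 2.98 CPM. The core 2 and branching enzymes GCNT3 (-1.58 ± 0.36), GCNT1 (-1.18 ± 0.20), GCNT2 (-0.98 ± 0.27) and GCNT4 (-0.87 ± 0.25), the sialyltransferase genes ST6GALNAC2 (-1.09 ± 0.25) and ST3GAL4 (-0.56 ± 0.12) and the initiating enzymes GALNT12 (-0.58 ± 0.14) and GALNT7 (-0.54 ± 0.07) also fell, each at an adjusted p between 0.000294 and 0.0200. GALNT14 rose (0.77 ± 0.17, adjusted p = 0.00562). The calls of GALNT5, ST6GALNAC4 and FUT2 were each lost when any of 3 to 5 single libraries was left out, with lowest and highest values of -0.52 and -0.38 for GALNT5, -0.68 and -0.39 for ST6GALNAC4, and -0.58 and -0.38 for FUT2.

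Of 18 tested transcription factors known to act on genes of this kind, 4 fell and 1 rose in Detroit 562, with a median of -0.17. ELF3, an epithelial ETS factor, fell from 198 to 74.6 CPM (-1.41 ± 0.36, adjusted p = 0.0111), the interferon-responsive factor gene IRF1 from 60.3 to 30.1 CPM (-1.001 ± 0.15, adjusted p = 0.000653) and NFKBIZ, a co-factor of NF-kB that acts on LCN2, from 40.7 to 22.8 CPM (-0.83 ± 0.11, adjusted p = 0.000366). EHF also fell (-0.46 ± 0.15, adjusted p = 0.0299), a call lost without control replicate 1 (-0.40, adjusted p = 0.126) or HGF replicate 1 (-0.37, adjusted p = 0.103). RELB rose (0.59 ± 0.24, adjusted p = 0.0844), a call lost without control replicate 1 (0.42), control replicate 2 (0.54) or HGF replicate 3 (0.21). NFKBIZ also passed the test of a difference in response against both other lines without the block. Among the further mucins, MUC15 passed that test against SCC-9 only. Of 7 tested proteases and sheddases, CTSD alone was called (-0.77 ± 0.24, adjusted p = 0.0308), and not without control replicate 1 (-0.72) or HGF replicate 3 (-0.59). In FaDu and SCC-9 no gene of these lists was called without the block. With it, the O-glycan enzymes had 1 higher and 4 lower in FaDu and 2 lower in SCC-9. The other secreted defence genes had 1 higher and 2 lower in each line, and the transcription factors 2 lower in each. In FaDu 1 further mucin was higher, and of the proteases and sheddases 1 was higher and 2 lower. These stand beside 5.6% of all genes called in FaDu and 1.97% in SCC-9.

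Cell type markers moved with the members in part. The summed level of 6 goblet or secretory cell markers was 219 to 326 CPM in untreated Detroit 562 and 106 to 157 CPM with HGF, most of it AGR2, and at most 2.35 CPM in FaDu and 0.685 CPM in SCC-9. The summed squamous markers, 6 of 6 present in every group, ranged from 2655 to 3791 CPM in untreated Detroit 562 and from 1629 to 2869 CPM with HGF, with KRT5 called as lower (-0.90 ± 0.31), although not without control replicate 1 (-0.73), control replicate 2 (-0.85) or HGF replicate 3 (-0.59), and with KRT14, named here after its value was seen, at only 1.23 CPM. The 5 markers of simple or glandular epithelium summed to 5492 to 7989 CPM and to 3574 to 5179 CPM with HGF, where KRT8 (-0.76) and KRT19 (-0.90) were called as lower. Both calls were lost without control replicate 1 (-0.65 and -0.74) or HGF replicate 3 (-0.58 and -0.66), and that of KRT19 also without control replicate 2 (-0.85). The 5 leukocyte markers summed to at most 0.487 CPM in Detroit 562, 6.10 CPM in FaDu and 10.0 CPM in SCC-9. The 3 endothelial markers summed to at most 2.899 CPM in Detroit 562, where VWF was called as lower though not without control replicate 1 (-1.82, adjusted p = 0.122), and 8.34 CPM in FaDu. The 6 fibroblast markers summed to 29.8 to 54.3 CPM in untreated Detroit 562 and 15.0 to 27.6 CPM with HGF, mostly COL1A1 and COL1A2, both called as lower. The call of COL1A2 was lost without control replicate 1 (-0.74), control replicate 2 (-0.97) or HGF replicate 3 (-0.64). The part of these shifts in the members' values was not tested, and in bulk RNA fewer cells of a type and less RNA per cell cannot be told apart.

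For each member, the gene most like it over the 18 libraries was found by Pearson's r of log2 CPM among the other 15474 genes tested, as a description. The libraries share their lines, which sets most of these values. PIGR was most like LYPD2 (r = 0.998), MUC20 like IGFBP3 (0.995), SLPI like DUOXA1 (0.992), MUC1 like TRIP10 (0.991) and WFDC2 like KLHL22 (0.991). MUC16 was most like MAP3K1 (0.984), PI3 like CH17-140K24.5 (0.981), MUC4 like KIAA1370 (0.978), LCN2 like LRRC26 (0.956) and BPIFA2 like RNF17 (0.928).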

How the data were processed

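The deposited values are raw read counts per gene, not normalized. Upstream, adapters were removed by cutadapt 1.16, alignment was by STAR 2.5.2b against GRCh38, and bedtools counted stranded reads over GENCODE 28 gene extents. The paper gives default settings for STAR and a bedtools command with no filter on mapping quality. It does not say how multi-mapped reads were treated. Sample records and paper give 16 h of HGF, used here, and the series record 48 h. The main test was that of edgeR 4.0.16 under R 4.3.3 (filterByExpr on 6 groups, TMM, quasi-likelihood test, 1 mean per line and treatment). Alternatives were a replicate block, DESeq2 1.42.0 with and without prior, its size factors, other filters, single-line fits and each library left out. The replicate check correlated deviations from group means across genes: same numbers gave 0.161 to 0.454, 0.376 to 0.563 and 0.203 to 0.332 in Detroit 562, FaDu and SCC-9, different numbers averaged -0.144, -0.227 and -0.136. Deviations cancel within a group, so the negative averages follow from the same-number values and are no separate evidence of pairing. Scripts were tested on simulated data. Members and lists were chosen with earlier results of these data known. All members are named, and list genes where called or among the highest in a list. No adjustment over a list alone was made.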

Additional observations from a re-analysis of the deposited data

Results flagged for a closer look

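The results below are differences in the HGF response between lines that passed edgeR's test of the interaction (Benjamini-Hochberg adjusted p below 0.1) with the replicate block, and none of them passed in the same test without it when all libraries were used. All are log2 differences, and negative values mean a lower log2 response in Detroit 562 than in the other line. Against FaDu they were -0.65 for MUC1, -0.80 for MUC4, -0.34 for SLPI and -2.12 for PIGR. Against SCC-9 they were -0.90 for MUC1, -0.81 for MUC4, -0.53 for SLPI, -0.73 for PI3 and -2.15 for PIGR. The values of PIGR are set against lines with 1 to 4 counts in a library, and nothing is read from their size. BPIFA2 also passed against SCC-9, where both groups had fewer counts than the floor, so no value is given.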

How the results depend on the processing

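With the replicate block, the members called in FaDu rose from 0 to 4, and those whose response differed rose from 0 to 4 for Detroit 562 against FaDu and from 0 to 6 against SCC-9 (1 with DESeq2, with or without prior). The numbers called in Detroit 562 and SCC-9 stayed within 1.5 times of 7 and 0. In Detroit 562, DESeq2, a stricter count filter and single-line fits left 6, since BPIFA2 was filtered out or, in DESeq2, had no adjusted p. Leaving out 1 library gave 6 to 7 in Detroit 562, 0 to 1 for the difference from SCC-9, 10 and 8 for untreated Detroit 562 against FaDu and SCC-9, and 6 to 7 for untreated FaDu against SCC-9. In the blocked model without 1 pair, chosen after seeing the data, the counts were 8 to 9 in Detroit 562, 2 to 4 in FaDu, 0 to 1 in SCC-9, and 1 to 5, 3 to 6 and 0 to 1 for the differences Detroit 562 against FaDu, against SCC-9 and FaDu against SCC-9. Shares of all genes called are given here only for the main and the blocked model with all libraries. Counts under the other settings, DESeq2 among them, thus describe the members' calls alone and not a difference from all genes. The cause of these changes was not tested.

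The untreated PI3 difference of Detroit 562 from SCC-9 (log2 -0.01) changed sign with DESeq2 size factors (0.010), no filter (0.00748), DESeq2 with prior (0.00834) and without (0.00896), and ran from -0.25 to 0.30 without 1 library. Uncalled HGF changes that changed sign without 1 library ran in FaDu from -0.40 to 0.56 for MUC16, -3.50 to 0.19 for BPIFA2, -1.54 to 0.58 for LCN2 and -0.20 to 0.33 for PI3, and in SCC-9 from -0.95 to 0.33 for MUC16, 0 to 3.12 for BPIFA2 and -0.14 to 0.055 for SLPI. Depth limits BPIFA2 and, outside Detroit 562, PIGR.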
